A study of Mus musculus with 6 samples.

Results

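The genes described here encode the initiation and elongation factors of protein synthesis. They are all genes of the deposited count table whose symbol begins with *Eif* and a digit from 1 to 6 or with *Eef* and 1 or 2, apart from the eIF2 kinases (*Eif2ak* genes) and the sex-linked copies *Eif2s3x* and *Eif2s3y*. The rule used names only, and it gave 60 of the 23159 genes in the table. Of these, 4 carry older symbols of Argonaute genes (*Eif2c1* to *Eif2c4*, now *Ago1* to *Ago4*), which act in small RNA silencing. They are included in the counts and medians over all members and have a paragraph of their own below.

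RNA was measured in chondrocytes sorted by a retained nuclear label from the mouse growth plate, the cartilage in which long bones lengthen. Label-retaining chondrocytes (LRCs) were the tdTomato-positive cells with high H2B-GFP, and non-LRCs the tdTomato-positive cells with mid to low H2B-GFP. All mice of both groups were homozygous for Peli2(Col2a1-tTA), Col1a1(TRE-H2B-GFP), Col2a1-creER and R26R(tdTomato). They received doxycycline from P21 to P49 and tamoxifen at P46 and P47, and cells were sorted at P49. Each of 3 experiments gave 1 LRC library from about 10000 cells and 1 non-LRC library from about 50000 cells, both from 1 pool of littermates, so that *n*=3 per group in 3 pairs. A *Col2a1* promoter drove both tTA and creER. The study's text describes weak H2B-GFP in bone cells of mice that lack tTA, and the sort required tdTomato as well. Since doxycycline stops new label and division dilutes it, the groups are defined by retained label, and the comparison asks which RNAs differ between cells that kept the label and cells that lost it. The paper describes LRCs as slow-cycling and non-LRCs as richer in pre-hypertrophic and hypertrophic markers. At the chase time used here, its uptake of the division label EdU was higher in non-LRCs, but not significantly. Division and maturation were not separated by this sort.

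To start translation, eIF2 brings the initiator tRNA to the small ribosomal subunit, with eIF1, eIF1A and eIF5 guarding start codon choice and eIF3 serving as a scaffold. The complex eIF4F, made of the cap-binding protein eIF4E, the helicase eIF4A and the scaffold eIF4G, recruits the mRNA, and 4E-BP proteins hold eIF4E back when mTORC1 is inactive. During elongation, eEF1A delivers aminoacyl-tRNAs, the eEF1B complex recharges eEF1A with GTP, and eEF2 moves the ribosome along the mRNA. Low protein synthesis is a known trait of quiescent stem cells in several tissues, and growth plate chondrocytes secrete large amounts of matrix.

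Total counts per library lay between 18943789 and 129559872, and the smallest was that of the LRCs in experiment 2. That library also stood apart in other measures, with 1731 of the genes tested at 0 counts, against 4 to 365 in the others, so values without experiment 2 are given for several genes. All 9 chondrocyte markers were detected, with a summed level of 80453 to 229860 CPM (counts per 1000000 counts, TMM-normalized). The 10 skeletal muscle markers summed to 12.5 to 43.3 CPM (*Myh2* at 0 counts). The 5 osteoblast markers summed to 121 to 250 CPM in LRCs and 75.0 to 363 CPM in non-LRCs, but went different ways. *Col1a1* was higher in LRCs, at 107 ± 50.8 against 21.7 ± 12.8 CPM (mean ± s.d., paired edgeR adjusted p of 0.0151). *Dmp1* was higher in every experiment, *Bglap* and *Bglap2* were lower in every experiment, and *Ibsp* changed sign. The 3 genes listed as articular markers, *Prg4*, *Cilp* and *Erg*, summed to 413 to 1990 CPM in LRCs and 60.3 to 86.4 CPM in non-LRCs. Their mean levels in LRCs were 665, 789 and 3.27 CPM. The paper also found *Prg4* mRNA in resting chondrocytes, much more faintly than in articular cartilage. By its cell counts, nearly all tdTomato-positive cells released by digestion were growth plate cells. Whether articular cells contributed to these sums was not tested. The 5 leukocyte and erythroid markers summed to 3.33 to 4.89 CPM in LRCs and 1.23 to 2.21 CPM in non-LRCs (*Hba-a1* at 0). Their part in the values below was not tested. In sorted bulk samples, a lower level of an RNA in each cell and fewer cells with that RNA cannot be told apart.

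No translation factor gene passed the paired edgeR test at an adjusted p below 0.05. Of the 60 genes, 57 had enough counts to be tested, and 0 of these were called, against 1.28% of all 13728 genes tested. At an unadjusted p below 0.05, 12 of the 57 were lower in LRCs (background 9.53% of all genes tested) and 1 was higher (background 8.89%). With the same pairing, DESeq2 called 6, with 5 lower (background 6.15%) and 1 higher (background 6.16%), and limma-voom called 5, with 4 lower (background 4.69%) and 1 higher (background 5.22%). The DESeq2 calls were *Eif1ax*, *Eif3i*, *Eef1e1*, *Eef2k* and *Eif4ebp1* on the lower side and *Eif3b* on the higher side. The limma-voom calls were the same genes without *Eif4ebp1*. With edgeR and only genes that had at least 10 counts in every library, 2 members, *Eif1ax* and *Eif3i*, were called lower (background 2.97%).

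The fitted changes leaned to the lower side. Of the 57 genes, 43 had a log2 fold change (LRC against non-LRC) below 0 and 14 above 0, while 56% of all genes tested lay below 0 and 44% above. The median log2 fold change was -0.24, against -0.10 over all genes tested. Within experiments 1, 2 and 3 the median difference in log2 CPM was -0.19, -0.21 and -0.16, against -0.01, -0.16 and -0.01 over all genes. Without experiment 2 the median log2 fold change was -0.19, against -0.02 over all genes. With offsets for GC content and exonic length it was -0.01, against 0.10 over all genes, and 29 of the 57 genes then lay below 0. Relative to all genes, the members' median was -0.14 without the offsets and -0.11 with them. Such offsets also take up a shift shared by all genes of a library. Signs and sizes under them, here and for the single genes below, are therefore not comparable with those without them. Without the 4 Argonaute genes, 40 of 53 tested members lay below 0 in the main fit, with a median of -0.21. Their medians within experiments 1, 2 and 3 were -0.20, -0.13 and -0.16, so in experiment 2 they did not lie below all genes.

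**Figure D1:**
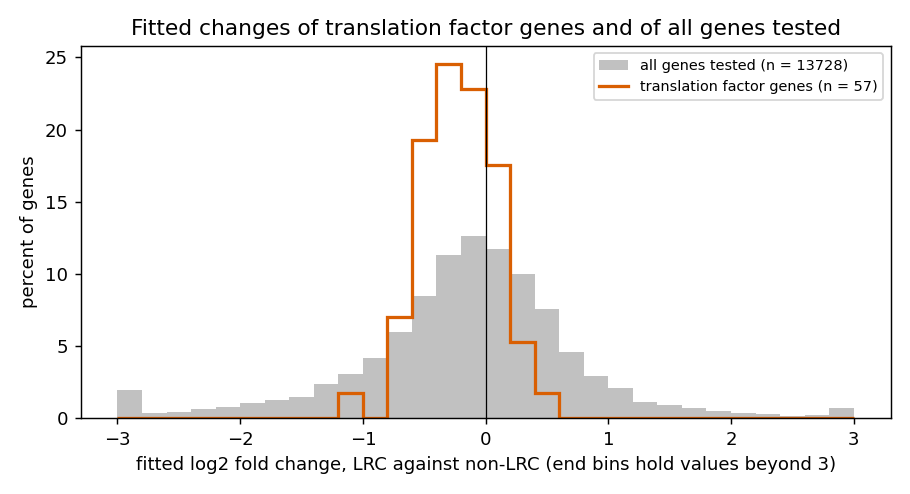
Share of genes (percent, y axis) in bins of the fitted log2 fold change of LRCs against non-LRCs (x axis) for all 13728 genes tested (grey) and for the 57 translation factor genes (orange line). The translation factor genes lay between -1.02 and 0.57, with a median of -0.24.

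Directions were also counted within the experiments. Of the 57 genes, 22 (38.6%) were lower in LRCs in all 3 experiments, against 26% of all genes tested, and 2 (3.51%), *Eif3b* and *Eif5b*, were higher in all 3, against 20.4%. The levels of the LRC libraries lay entirely below those of the non-LRC libraries for 6 genes (10.5%, background 10.3%), *Eef1e1*, *Eef2k*, *Eif5a*, *Eif2d*, *Eif1a* and *Eif1ax*, and entirely above them for 1 gene (1.75%, background 8.41%), *Eif3b*. The plot of changes by role shows all 57 genes.

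**Figure D2:**
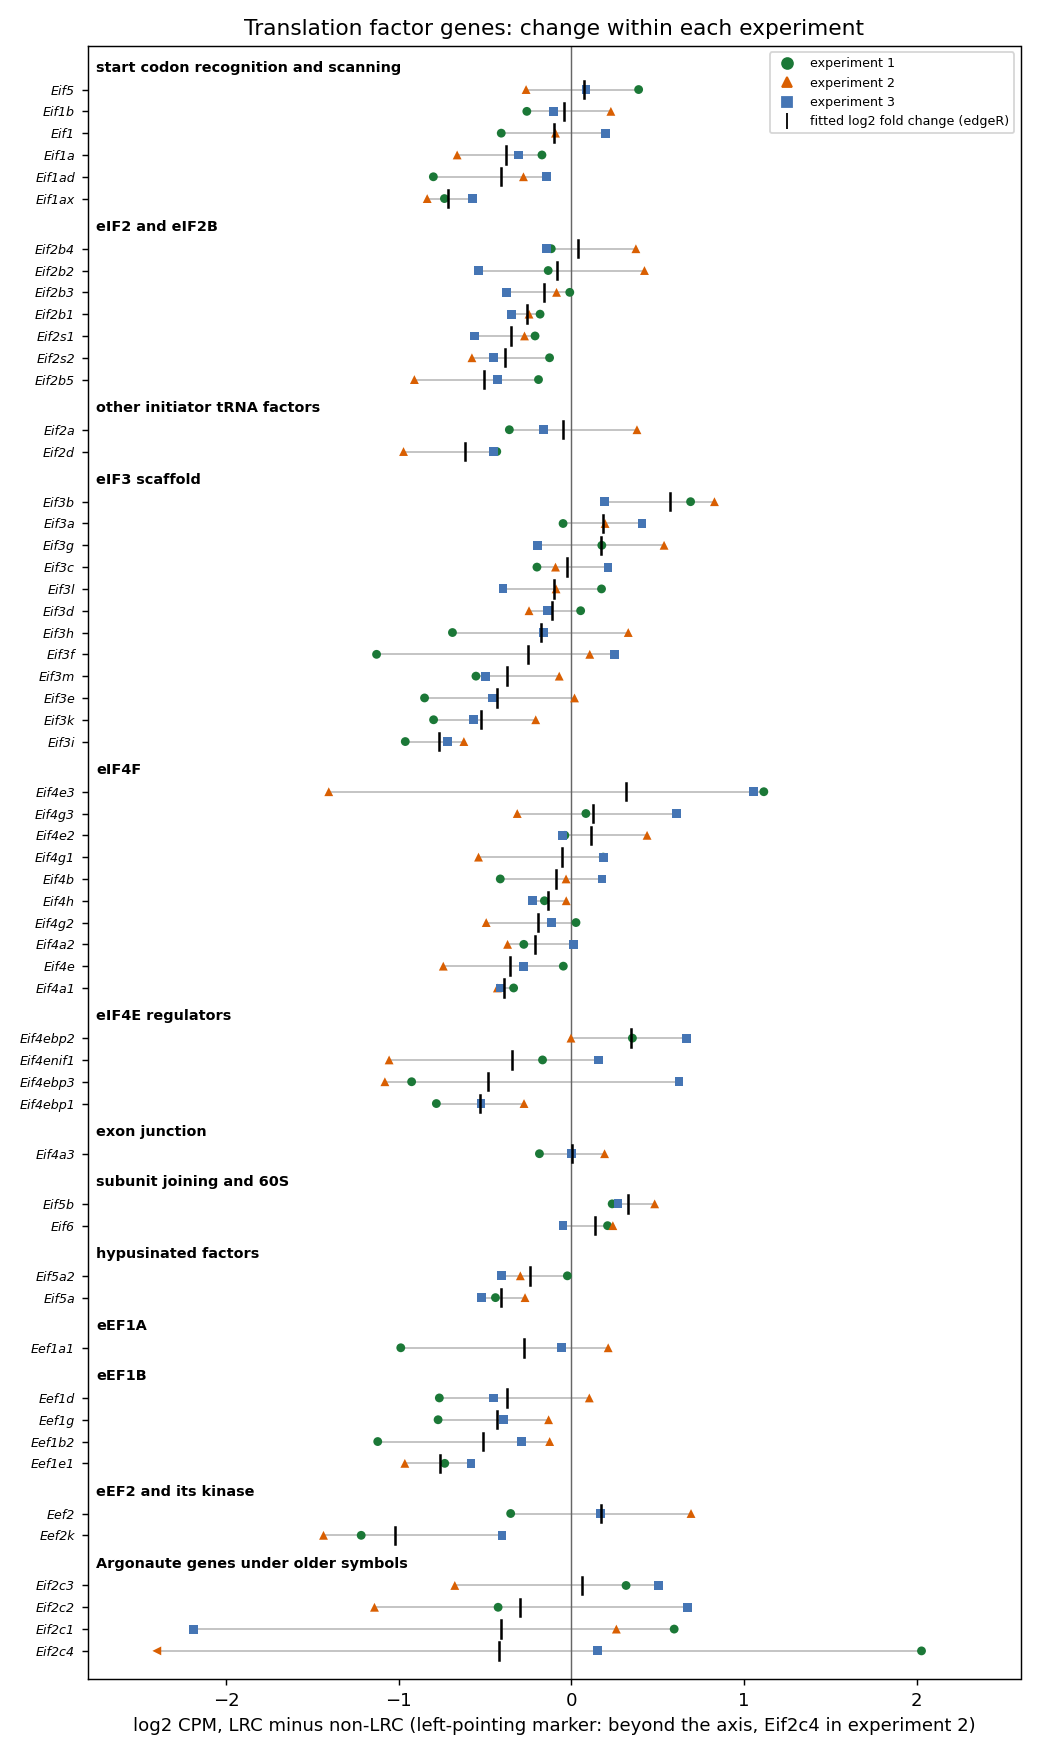
Difference in log2 CPM, LRC minus non-LRC, for experiment 1 (circles), 2 (triangles) and 3 (squares) for each tested gene, grouped by role, with the fitted log2 fold change as a black tick. *Eif3b* and *Eif5b* were the only genes with all 3 points above 0, and *Eif2c4* in experiment 2, at 0 counts in the LRC library, lies beyond the axis.

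Among the genes of start codon recognition, *Eif1ax* (GRCm38 chrX:159372178-159389928) encodes eIF1A, which keeps the scanning ribosome open and binds the decoding site. Its level in LRCs was 53.6, 70.3 and 59.4 CPM in experiments 1, 2 and 3, and in non-LRCs 89.1, 125 and 88.4 CPM. All 3 LRC libraries thus lay below all 3 non-LRC libraries, at 61.1 ± 8.50 against 101 ± 21.2 CPM (mean ± s.d., *n*=3 each). *Eif1ax* had a log2 fold change of -0.71 (s.e. 0.15), 1.64-fold lower in LRCs, with an adjusted p of 0.0814 in edgeR, 0.00129 in DESeq2 and 0.0186 in limma-voom. With the GC content and length offsets it was -0.39, with an edgeR adjusted p of 0.464, while the median of all genes tested moved from -0.10 to 0.10. Its near-identical paralog *Eif1a*, an autosomal gene of the same protein family, had the higher level per kilobase of exon, 133 CPM per kb in LRCs and 173 in non-LRCs, against 11.6 and 19.2 for *Eif1ax*. *Eif1a* had 579, 496 and 589 CPM in LRCs and 652, 785 and 727 CPM in non-LRCs, again with no overlap between the groups. Its log2 fold change was -0.38 (s.e. 0.16) with an edgeR adjusted p of 0.279, and it was -0.24 without experiment 2 and -0.0083 with the offsets. Reads of the 2 copies may have been exchanged or lost in alignment, so their separate levels are uncertain.

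*Eif1*, whose product rejects wrong start codons, had the highest level per kilobase of this role. Its mean level was 1318 ± 588 CPM in LRCs, against 1415 ± 628 CPM in non-LRCs, or 628 and 674 CPM per kb, and the groups overlapped. Its close paralog *Eif1b* stood at 35.0 CPM per kb in LRCs and 34.3 in non-LRCs. *Eif5*, the GTPase activator that triggers release of eIF2, stood at 125 and 120 CPM per kb with a log2 fold change of 0.07 (s.e. 0.17). The changes of *Eif1*, *Eif1b* and *Eif5* pointed in different directions in the 3 experiments.

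Of the 7 genes of eIF2 and its exchange factor eIF2B, 6 had a log2 fold change below 0 (4 with the GC content and length offsets) and 5 were lower in all 3 experiments. None was called by edgeR, DESeq2 or limma-voom, and 2 were lower at an unadjusted p below 0.05 in edgeR. The α and β subunits of eIF2, *Eif2s1* and *Eif2s2*, had log2 fold changes of -0.35 (s.e. 0.15) and -0.38 (s.e. 0.15). *Eif2b5*, the catalytic subunit that reloads eIF2 with GTP, had 42.8, 30.4 and 52.2 CPM in LRCs and 48.8, 57.1 and 70.3 CPM in non-LRCs. It was lower in LRCs within every experiment, although the highest LRC library lay above the lowest non-LRC library. The log2 fold change was -0.51 (s.e. 0.20), with an edgeR adjusted p of 0.256. Without experiment 2 it was -0.31, and with the offsets -0.25. The offsets also brought *Eif2s1* to -0.028 and *Eif2s2* to -0.15, while the median of all genes tested moved from -0.10 to 0.10. The regulatory subunits *Eif2b2* and *Eif2b4* had log2 fold changes of -0.08 and 0.04, with experiments on both sides of 0.

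The separate factors *Eif2a* and *Eif2d* can deliver initiator tRNA without eIF2. *Eif2d*, which also acts in reinitiation, had 16.8, 13.9 and 18.4 CPM in LRCs and 22.7, 27.3 and 25.2 CPM in non-LRCs. The groups did not overlap, and the log2 fold change was -0.62 (s.e. 0.23) with an edgeR adjusted p of 0.242 and a DESeq2 adjusted p of 0.134. *Eif2a* stood at 5.81 CPM per kb in LRCs and 5.90 in non-LRCs.

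The eIF3 scaffold held members at both ends of the range. Of its 12 tested subunits, 9 had a log2 fold change below 0 and 3 above 0, and the median was -0.14. With the offsets for GC content and length, 4 of the 12 lay below 0, while the median of all genes tested moved from -0.10 to 0.10. *Eif3b* (chr5:140419328-140443360) encodes one of the core subunits on which the complex is built, and it had the highest level per kilobase in the complex, 136 CPM per kb in LRCs and 91.7 in non-LRCs. Its level was 527, 451 and 389 CPM in LRCs and 326, 254 and 340 CPM in non-LRCs. Every LRC library lay above every non-LRC library, at 456 ± 69.2 against 307 ± 46.2 CPM. *Eif3b* thus had a log2 fold change of 0.57 (s.e. 0.17), 1.49-fold higher in LRCs, with an adjusted p of 0.163 in edgeR, 0.0258 in DESeq2 and 0.0399 in limma-voom, and the offsets brought it to 0.72.

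*Eif3i* (chr4:129591960-129600648), a subunit that binds to eIF3b in the complex, had the opposite sign. It had 28.9, 53.1 and 31.1 CPM in LRCs and 56.3, 81.7 and 51.1 CPM in non-LRCs. Experiment 2 was highest in both groups, so that the groups overlapped, while the difference within each pair was -0.96, -0.62 and -0.72 on the log2 scale. This gave a log2 fold change of -0.77 (s.e. 0.17), 1.70-fold lower in LRCs, with an adjusted p of 0.0902 in edgeR, 0.00336 in DESeq2 and 0.0185 in limma-voom. Without experiment 2, the edgeR adjusted p was 0.0456, and *Eif3i* was then the only member called, against 2.1% of all genes tested that were called lower. *Eif3k*, a peripheral subunit, had a log2 fold change of -0.52 (s.e. 0.20), with an edgeR adjusted p of 0.239, and -0.28 with the offsets. The core subunits *Eif3a* and *Eif3c* had log2 fold changes of 0.19 (s.e. 0.15) and -0.03 (s.e. 0.15). *Eif3c* was the second most abundant subunit per kilobase of exon, at 69.5 CPM per kb in LRCs and 71.4 in non-LRCs. By the length of the longest coding transcript, *Eif3e* came before it, at 74.2 against 73.1 CPM per kb over all libraries. *Eif3j*, which encodes the loosely bound subunit eIF3j, was listed at 0 counts in every library, and its symbol has since been given to a pair of copies, *Eif3j1* and *Eif3j2*, neither of which was analysed here. Of the exonic bases of *Eif3d*, 43.3% are shared with an antisense gene, and the strand setting of the counting is not given in the sources used here.

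**Figure D3:**
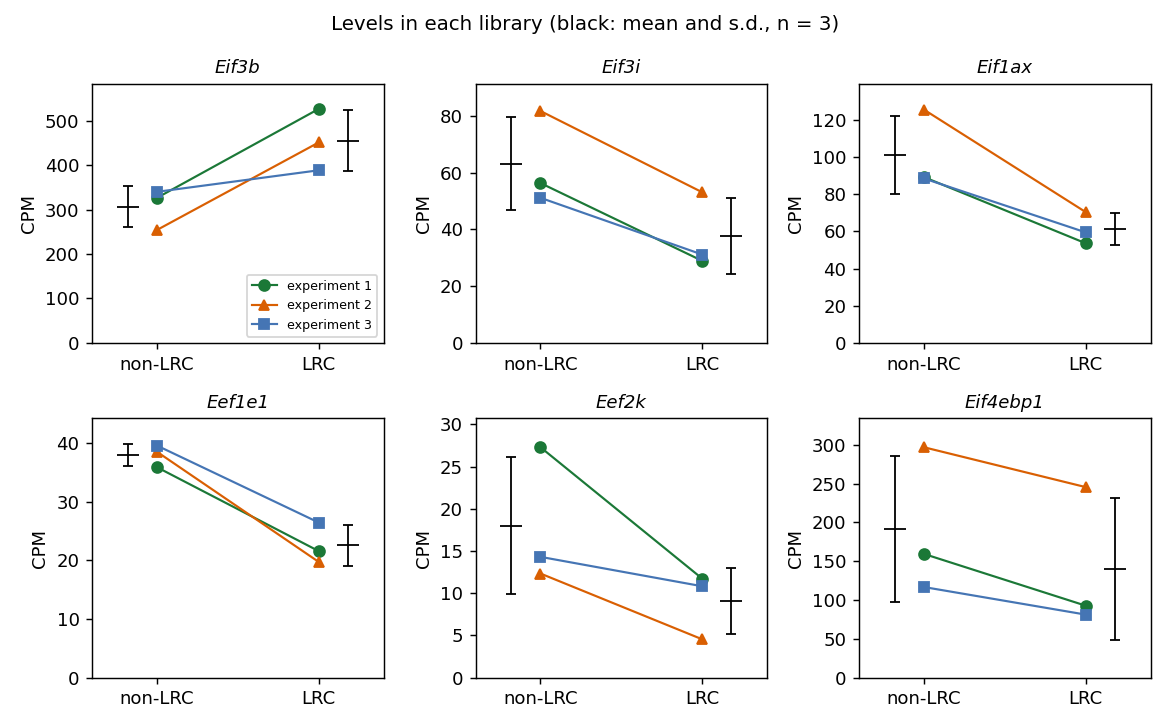
TMM-normalized CPM (y axis, from 0) of the 6 genes called by the paired DESeq2 fit, in non-LRCs and LRCs, with a line for each experiment and the mean and s.d. of each group in black (*n*=3). The line of *Eif3b* went up in every experiment, and the lines of the other 5 genes went down in every experiment.

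None of the 10 tested genes of eIF4F and its helpers was called by edgeR, DESeq2 or limma-voom, and 1, *Eif4a1*, had an unadjusted p below 0.05 in edgeR. *Eif4a1*, the main helicase of eIF4F, had 290, 493 and 295 CPM in LRCs and 366, 664 and 392 CPM in non-LRCs. It was lower within every pair by a similar step, from -0.33 to -0.43 on the log2 scale, while experiment 2 was highest in both groups. The log2 fold change was -0.39 (s.e. 0.13), with an adjusted p of 0.199 in edgeR and 0.0522 in DESeq2, and it was -0.18 with the offsets. Its paralog *Eif4a2* had a log2 fold change of -0.21 (s.e. 0.15). *Eif4a3*, a helicase of the exon junction complex and not of eIF4F, had 0.00 (s.e. 0.15). Per kilobase of exon, *Eif4a1* stood at 82.9 CPM per kb in LRCs and 109 in non-LRCs, *Eif4a3* at 39.7 and 38.8, and *Eif4a2* at 23.2 and 27.2.

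Among the eIF4G scaffolds, *Eif4g2*, which lacks the eIF4E binding site and serves cap-independent starts, was the most abundant. It stood at 144 CPM per kb in LRCs and 162 in non-LRCs, against 19.7 and 19.1 for the canonical *Eif4g1* and 7.02 and 6.39 for *Eif4g3*. The log2 fold changes of *Eif4g1*, *Eif4g2* and *Eif4g3* were -0.05 (s.e. 0.19), -0.19 (s.e. 0.16) and 0.13 (s.e. 0.21). Without experiment 2 they were 0.19, -0.043 and 0.34. The cap-binding protein gene *Eif4e* had 205, 183 and 231 CPM in LRCs and 211, 307 and 279 CPM in non-LRCs. It was lower in every pair, with a log2 fold change of -0.35 (s.e. 0.18) and an edgeR adjusted p of 0.355. Leaving out experiment 2 brought this to -0.16, and the GC content and length offsets brought it to -0.073. Its paralog *Eif4e2*, which binds caps without supporting eIF4G binding, had a log2 fold change of 0.12 (s.e. 0.17). *Eif4e3* changed sign between experiments, with differences in log2 CPM of 1.11 and 1.05 for experiments 1 and 3 and -1.40 in experiment 2, where the LRC library had 54 counts. *Eif4e1b*, an oocyte form of the cap-binding protein, had 1 count, in a non-LRC library.

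Among the regulators of eIF4E, *Eif4ebp1* (chr8:27260329-27276674) encodes 4E-BP1, the mTORC1 substrate that blocks eIF4E from eIF4G. It had 92.7, 245 and 81.2 CPM in LRCs and 159, 297 and 117 CPM in non-LRCs. The groups overlapped because experiment 2 was high in both, while each pair was lower in LRCs. Its fitted log2 fold change was -0.53 (s.e. 0.16), 1.44-fold lower, with an adjusted p of 0.158 in edgeR, 0.0420 in DESeq2 and 0.0522 in limma-voom. With the GC content and length offsets the value was -0.15, with an edgeR adjusted p of 0.80. *Eif4ebp1* was also the predominant 4E-BP gene, at 63.6 CPM per kb in LRCs and 87.0 in non-LRCs, against 0.538 and 0.396 for *Eif4ebp2* and 1.98 and 3.23 for *Eif4ebp3*. *Eif4ebp2* and *Eif4ebp3* had log2 fold changes of 0.35 (s.e. 0.59) and -0.48 (s.e. 0.78), and 67.3% of the exonic bases of *Eif4ebp3* are shared with a read-through gene on the same strand. *Eif4enif1*, the transporter that takes eIF4E into the nucleus, stood at 4.53 CPM per kb in LRCs and 5.33 in non-LRCs.

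*Eif5b*, the GTPase that joins the ribosomal subunits, had 50.9, 87.4 and 38.8 CPM in LRCs and 43.2, 62.6 and 32.2 CPM in non-LRCs. It was higher in LRCs in every pair, but the groups overlapped. *Eif5b* had a log2 fold change of 0.33 (s.e. 0.16), with an edgeR adjusted p of 0.344 and a DESeq2 adjusted p of 0.278, and 16.9% of its exonic bases are shared with *Rev1* on the opposite strand. *Eif6*, which keeps the large subunit from joining too early, had a log2 fold change of 0.13 (s.e. 0.14).

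*Eif5a*, the factor that carries hypusine and helps ribosomes through stalling sequences, was the most abundant factor per kilobase after *Eef1a1* and *Eif1*. It had 517, 676 and 596 CPM in LRCs and 701, 814 and 854 CPM in non-LRCs, with no overlap between the groups. The log2 fold change was -0.41 (s.e. 0.14), with an adjusted p of 0.204 in edgeR and 0.0571 in DESeq2, and it was -0.16 with the GC content and length offsets. Its paralog *Eif5a2* stood at 3.51 CPM per kb in LRCs and 4.20 in non-LRCs, against 251 and 332 for *Eif5a*, with a log2 fold change of -0.24 (s.e. 0.22).

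Of the 7 tested elongation genes, 6 had a log2 fold change below 0 (5 with the offsets, under which *Eef1a1* was at 0.077), with a median of -0.43, and 4 were lower in all 3 experiments. The lowest values, -1.02 and -0.76, were those of *Eef2k*, a kinase gene, and *Eef1e1*, whose product sits in the multi-tRNA synthetase complex. Both were among the 4, with *Eef1b2* and *Eef1g*. The changes of *Eef1a1*, *Eef1d* and *Eef2* differed in sign between experiments. *Eef1a1*, which delivers aminoacyl-tRNAs, was the most abundant member per kilobase, at 683 CPM per kb in LRCs and 816 in non-LRCs. It had 1333, 2636 and 1140 CPM in LRCs and 2644, 2274 and 1186 CPM in non-LRCs, so that the groups overlapped. The pair of experiment 1 differed by -0.99 on the log2 scale, that of experiment 2 by 0.21 and that of experiment 3 by -0.06. The log2 fold change was -0.27 (s.e. 0.25), and its edgeR adjusted p was 0.619. *Eef1a2*, the form of muscle and neurons, had 0 counts in all 6 libraries, where 3 counts would be worth 0.0257 to 0.143 CPM. Such limits cover counting error only, since amplified reads without molecular identifiers are not independent molecules.

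All 4 genes grouped with the eEF1B complex had log2 fold changes below 0, from -0.76 to -0.37, and stayed below 0 with the offsets. *Eef1e1* (chr13:38644207-38659058), whose product is named for its likeness to eEF1B and sits in the multi-tRNA synthetase complex, had 21.6, 19.7 and 26.5 CPM in LRCs and 35.9, 38.5 and 39.6 CPM in non-LRCs. The groups did not overlap, at 22.6 ± 3.47 against 38.0 ± 1.90 CPM. In the fit, the log2 fold change was -0.76 (s.e. 0.19), 1.69-fold lower, with an adjusted p of 0.120 in edgeR, 0.0136 in DESeq2 and 0.0431 in limma-voom. The offsets brought it to -0.41, with an edgeR adjusted p of 0.491. The exchange factor *Eef1b2* had a log2 fold change of -0.51 (s.e. 0.23) and *Eef1g*, the structural subunit, of -0.43 (s.e. 0.17), with edgeR adjusted p of 0.305 and 0.257. With the offsets they stood at -0.14 and -0.15. For both, experiment 1 gave the strongest difference (-1.12 and -0.77) and experiment 2 the weakest (-0.13 for each).

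*Eef2k* (chr7:120842831-120907450) encodes the kinase that phosphorylates eEF2 and so slows elongation. It had the largest fitted change among the members and was the only one that DESeq2 called with a fold change of at least 2. Its level was 11.7, 4.54 and 10.8 CPM in LRCs and 27.3, 12.3 and 14.3 CPM in non-LRCs. All LRC libraries lay below all non-LRC libraries, but the lowest non-LRC library was close to the highest LRC library. *Eef2k* had a log2 fold change of -1.02 (s.e. 0.32), 2.03-fold lower in LRCs, with an adjusted p of 0.173 in edgeR, 0.0395 in DESeq2 and 0.0405 in limma-voom. Its substrate gene *Eef2*, the translocase, had 528, 746 and 400 CPM in LRCs and 674, 462 and 356 CPM in non-LRCs. For *Eef2* the log2 fold change was 0.17 (s.e. 0.22), with the sign of experiment 1 opposite to that of experiments 2 and 3.

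The experiments differed in the elongation genes. Summed over the elongation genes, the level was 2136, 3899 and 1850 CPM in LRCs and 3812, 3306 and 1953 CPM in non-LRCs. The difference of this sum within pairs was -0.84, 0.24 and -0.08 on the log2 scale. Most of the sum was *Eef1a1* in every library, so it says little about the other elongation genes. Across the 7 tested elongation genes, the median difference was -0.77, -0.13 and -0.39. Summed over the initiation genes, the differences were closer together, at -0.11, -0.22 and -0.12. Across the 57 tested genes, the changes in experiments 1 and 2 had a Pearson r of -0.38, those in 1 and 3 of 0.23, and those in 2 and 3 of -0.13, against 0.20, 0.45 and 0.25 over all genes tested. These r values include the Argonaute gene *Eif2c4*, at 2.03 in experiment 1 and -6.13 in experiment 2, where its LRC library had 0 counts. They were not computed without it. The genes of 1 library share its depth and normalization and are not independent. Exonic length had an r of 0.30, -0.19 and 0.05 with the changes of these genes in experiments 1, 2 and 3, and its part was not tested.

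Many mRNAs of the translation machinery belong to the 5′ TOP class, whose mRNAs start with a C followed by a run of pyrimidines and are translated under the control of mTORC1 and LARP1. After the values had been seen, 9 members known as 5′ TOP mRNAs were set apart: *Eef1a1*, *Eef1b2*, *Eef1d*, *Eef1g*, *Eef2*, *Eif3e*, *Eif3f*, *Eif3h* and *Eif4b*. Their median difference was -0.77, 0.10 and -0.16 on the log2 scale in the order of the experiments. The other 48 tested members had medians of -0.16, -0.27 and -0.15. In experiment 1 all 9 of these genes were lower in LRCs, with *Eif3f* at -1.13 and *Eef2* at -0.35 as the ends of the range, while in experiment 2 *Eef2* was at 0.69. Because the 9 were picked with these values known, the split only describes the values and cannot test the class.

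**Figure D4:**
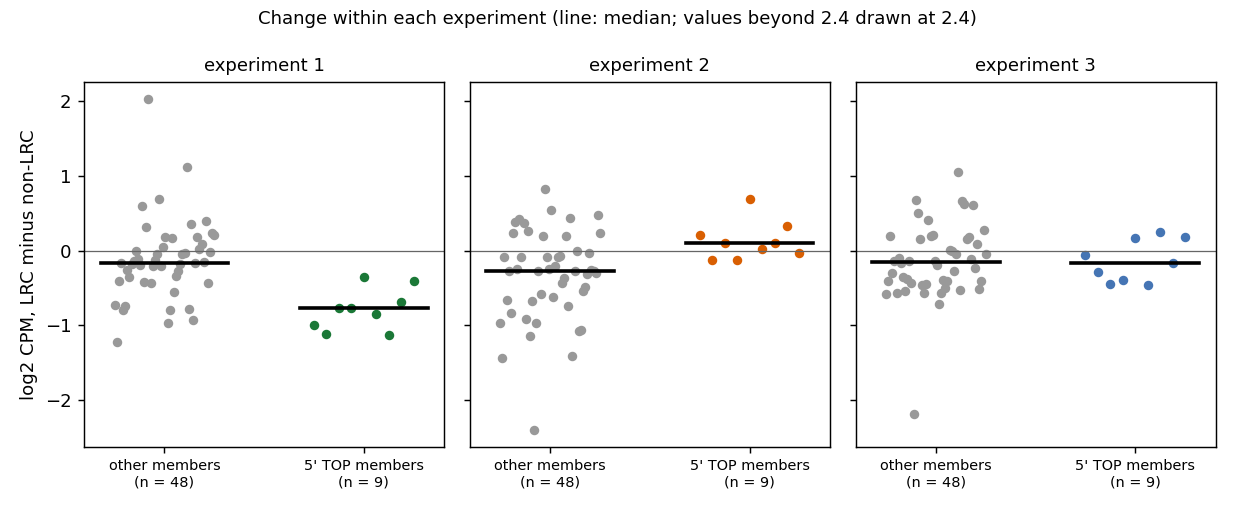
Difference in log2 CPM between LRC and non-LRC libraries (y axis) in each experiment for the 9 members of the 5′ TOP class (coloured) and the other 48 tested members (grey), with medians as black lines. The median of the 9 was -0.77 in experiment 1 and 0.10 in experiment 2. The 9 were chosen after the values were seen.

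The pyrimidine run itself can be read at the annotated transcript starts of RefSeq on GRCm38.p6. Of the 60 members, 46 had a start in the table, and 11 of these (23.9%) had a C followed by at least 6 further C or T letters that began between 5 bases before and 20 bases after an annotated start, on the strand of the gene. Over all 27025 genes with a start, 13.7% had such a run. Of the 9 members of the 5′ TOP class, 5 had a start in the table and 4 of these had a run. One of the 4 is *Eef1a1*, whose run began 5 bases before its annotated start and may lie outside the mRNA, so that it may not be the 5′ TOP of that gene. The windows of *Eef2*, *Eif3f* and *Eif4b* are shown because these genes differed in sign between the experiments and hold the run at or after the annotated start or within 4 bases before it, with the run in capitals. They lie at chr10:81176627-81176656 (*Eef2*, plus strand), chr7:108934404-108934433 (*Eif3f*, plus strand) and chr15:102073767-102073796 (*Eif4b*, plus strand).
Eef2: gggcgttgacgtcagcggtCTCTTCCgccg
Eif3f: ttctaggCTCTCTCTCTTTCTCggcaagat
Eif4b: gtcggacgccgcgccaCCCCCTCgcgctgc
The runs are 7, 15 and 7 bases long. A run in such a window is a match of letters and does not show where these transcripts began in chondrocytes.

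The 4 Argonaute genes under older symbols each changed sign between experiments. *Eif2c2* (*Ago2*) had 16.0, 5.26 and 12.2 CPM in LRCs and 21.5, 11.6 and 7.67 CPM in non-LRCs, with overlap between the groups and a log2 fold change of -0.30 (s.e. 0.41). *Eif2c3* (*Ago3*) had a log2 fold change of 0.06 (s.e. 0.30). *Eif2c1* (*Ago1*) had 5 counts in the LRC library of experiment 3, and *Eif2c4* (*Ago4*) had 0 counts in the LRC library of experiment 2 but 1062 in that of experiment 1. Their log2 fold changes of -0.41 (s.e. 1.07) and -0.42 (s.e. 1.71) rest on these libraries. Without experiment 2 the value of *Eif2c4* was 1.11, and without experiment 3 that of *Eif2c1* was 0.46.

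Of 59 genes in 10 further lists, 55 were in the table and tested, and edgeR called 0 of them. At an unadjusted p below 0.05, 8 of the 55 were lower (background 9.53%) and 2 higher (background 8.89%). DESeq2 called 5 lower (background 6.15%), with 4 of these called by limma-voom (background 4.69%). The targets of the integrated stress response, which follows phosphorylation of eIF2, held 3 of the 5, and all 6 of them had log2 fold changes below 0, also with the offsets, with a median of -0.70. Of the 6, 4 were lower in all 3 experiments (background 26%) and 2 differed in sign between experiments. The medians within experiments 1, 2 and 3 were -0.93, -0.28 and -0.50. *Asns*, asparagine synthetase, had 105, 130 and 120 CPM in LRCs and 202, 337 and 199 CPM in non-LRCs, with no overlap. Its log2 fold change was -1.01 (s.e. 0.17), with an adjusted p of 0.0606 in edgeR and 8.78e-06 in DESeq2. *Ddit3*, the stress factor CHOP, had a log2 fold change of -0.97 (s.e. 0.20), with an adjusted p of 0.0814 in edgeR and 0.000815 in DESeq2. *Trib3*, a pseudokinase induced by CHOP, had -0.91 (s.e. 0.24), with an adjusted p of 0.131 in edgeR and 0.0103 in DESeq2. The genes of eIF2 kinases and phosphatase subunits leaned the other way, with 4 of 6 above 0 (5 with the offsets) and a median of 0.29. The heme-regulated kinase *Eif2ak1* had a log2 fold change of 0.42 (s.e. 0.19) and the endoplasmic reticulum kinase *Eif2ak3* of 0.38 (s.e. 0.22), and neither was called.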

How the data were processed

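RNA was measured in 6 libraries, 3 of LRCs and 3 of non-LRCs, and groups and experiment numbers came from the sample labels. The authors deposited raw counts of non-ambiguously mapped single-end reads per gene from HTSeq, after alignment to mm10 (GRCm38), for which the submitters' processing notes name TopHat2 2.0.13 and Bowtie2 2.2.1. The gene annotation and strand setting are not given in the sources used here. The deposited size-factor-normalized and rlog tables were not used. Overlapping genes and near-identical copies are therefore uncertain.

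The counts entered the quasi-likelihood test of edgeR 4.0.16 under R 4.3.3 (TMM scaling, filterByExpr at 10 counts and a total of 15, Benjamini-Hochberg adjustment over all 13728 genes tested). Experiment number entered as a block, because the study's methods state a paired model and same-numbered libraries shared a pool of littermates. Deviations from the group means had a Pearson r of 0.197, 0.288 and 0.336 between the libraries of experiments 1, 2 and 3. Between libraries, the chi-square statistic per gene was 192 to 877, so none was a copy of another. CPM values are TMM-normalized, log2 CPM has a prior count of 2, and levels per kilobase use the exonic length of GENCODE vM21 on GRCm38, to which 20778 of 23159 symbols matched directly and 1917 by an older symbol. Ranks per kilobase can change with the length used. With the longest coding transcript, 9 of the 10 highest members were the same (Spearman rho of 0.965 over 57 members). P-values of the paired fits measure the spread of the difference between LRCs and non-LRCs across 3 pools, with information on spread borrowed across genes.

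Members and lists were chosen with earlier results of these data known. Named genes were members with an adjusted p below 0.05, the 10 with the largest log2 fold change in each direction among those with at least 10 counts in every library and 1 direction in all experiments (only 2 qualified as higher), the 2 most abundant per kilobase in each role, paralog families, members under 10 counts in any library and DESeq2 calls with a log2 fold change of at least 1. Of other lists, the 2 largest changes were named. Genes outside this rule (*Eif5*, *Eif3a*, *Eif2b2*, *Eif2b4*, *Eif3d*, *Trib3* and the 5′ TOP members *Eef1d*, *Eif3e*, *Eif3f*, *Eif3h* and *Eif4b*) were chosen after their values were seen. Alternatives were no block, DESeq2 1.42.0, limma-voom (limma 3.58.1), size factors of DESeq2 used in edgeR, a floor of 10 counts per library, no filter, omission of each experiment, and GC content and length offsets. Promoter sequences came from RefSeq. A further list of cell type markers is not reported here.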

Additional observations from a re-analysis of the deposited data

How the results depend on the processing

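With DESeq2 size factors in edgeR and with no filter on low counts, all 57 members kept their direction and their side of the threshold, and 30 of the 57 (5 above 0, 25 below 0) kept the same side of 0 under every alternative. Members called lower numbered 5 in DESeq2, 4 in limma-voom and 2 with at least 10 counts in every library (*Eif1ax* and *Eif3i*, background 2.97%), and members called higher 1 each in DESeq2 and limma-voom and 0 otherwise. Leaving out an experiment gave 0 to 1 members called lower. Other translation genes called lower numbered 5 in DESeq2, 4 in limma-voom and 2 with at least 10 counts in every library. They numbered 1 with no filter and 0 to 3 when an experiment was left out. Over all genes tested, those called lower were 845 of 13751 in DESeq2, 644 of 13728 in limma-voom and 330 of 11129 with that floor. With no filter they were 90 of 17835. Without experiments 1, 2 and 3 they were 8 of 13805, 306 of 14568 and 84 of 14044. Over all genes, 176 calls became 1692 in DESeq2, 1361 in limma-voom, 751 with at least 10 counts in every library, and 35 to 782 when an experiment was left out (35 without experiment 1, 782 without experiment 2). Without the replicate block, 1 gene was called over all genes and 0 members, and the members' median log2 fold change was -0.17. That median was -0.20 in limma-voom, -0.21 with at least 10 counts in every library, -0.0083 with the GC content and length offsets, and -0.21 to -0.19 when an experiment was left out. The cause of these differences was not tested.

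Some genes changed sign. With the GC content and length offsets, the median of all genes tested also moved, from -0.10 to 0.10. Without the replicate block, the log2 fold change was 0.028 for *Eif1b*, 0.10 for *Eif2c1*, 0.72 for *Eif2c4* and 0.044 for *Eif4g1*. In limma-voom it was -0.028 for *Eif2b4*, 0.14 for *Eif2c1*, 1.36 for *Eif2c4*, -0.017 for *Eif4a3* and 0.017 for *Eif4g1*. With the offsets and the replicate block it was 0.077 for *Eef1a1*, 0.25 for *Eif1*, 0.37 for *Eif1b*, 0.17 for *Eif2a*, 0.054 for *Eif2b1*, 0.22 for *Eif2b2*, 0.21 for *Eif3c*, 0.033 for *Eif3f*, 0.22 for *Eif3h*, 0.10 for *Eif3l*, 0.029 for *Eif3m*, 0.10 for *Eif4a2*, 0.083 for *Eif4b* and 0.11 for *Eif5a2*. Leaving out an experiment gave -0.52 to 0.073 for *Eef1a1*, -0.092 to 0.43 for *Eef2*, -0.23 to 0.049 for *Eif1*, -0.18 to 0.059 for *Eif1b*, -0.26 to 0.10 for *Eif2a*, -0.33 to 0.16 for *Eif2b2*, -0.13 to 0.15 for *Eif2b4*, -1.04 to 0.46 for *Eif2c1*, -0.76 to 0.11 for *Eif2c2*, -0.15 to 0.41 for *Eif2c3*, -2.69 to 1.11 for *Eif2c4*, -0.12 to 0.056 for *Eif3c*, -0.49 to 0.17 for *Eif3f*, -0.0088 to 0.38 for *Eif3g*, -0.43 to 0.080 for *Eif3h*, -0.25 to 0.064 for *Eif3l*, -0.093 to 0.091 for *Eif4a3*, -0.20 to 0.069 for *Eif4b*, -0.044 to 0.22 for *Eif4e2*, -0.17 to 1.09 for *Eif4e3*, -0.18 to 0.19 for *Eif4g1*, -0.093 to 0.34 for *Eif4g3* and -0.093 to 0.24 for *Eif5*.

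In the LRC library of experiment 2, 1 count was worth 0.0478 CPM, which limits what its values show for genes of low level.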

Other observations

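The further lists of translation genes gave no edgeR call, and the values of their 2 largest changes follow. Mitochondrial translation factors had all 10 log2 fold changes below 0 (background 56%), or 8 with the GC content and length offsets. Their median without the offsets was -0.24. Of the 10, 4 were lower in all 3 experiments (background 26%) and 6 differed in sign between experiments. The release factor *Mtrf1* had -1.68 with 0 counts in the LRC library of experiment 2, and the elongation factor *Tsfm* had -1.63 (s.e. 0.70), at 3.99 ± 2.72 CPM in LRCs against 10.5 ± 2.25 CPM in non-LRCs, with an edgeR adjusted p of 0.291. *Tsfm* had 21 counts in the LRC library of experiment 2. Without that experiment, *Mtrf1* was at -0.11 and *Tsfm* at -0.77. Of the genes of reinitiation and ribosome rescue, *Mcts2* had -0.72 (s.e. 0.78) and *Denr* -0.57 (s.e. 0.15), and the DESeq2 adjusted p of *Denr* was 0.0180. Of the poly(A) binding genes, *Paip2b* had -0.56 (s.e. 0.55) and *Paip2*, an inhibitor of the poly(A)-binding protein, -0.40 (s.e. 0.13), with a DESeq2 adjusted p of 0.0426.

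Among termination and recycling genes, *Gspt2* had a log2 fold change of 2.19 (s.e. 1.19) at 1.23 ± 1.32 CPM in LRCs against 0.288 ± 0.273 CPM in non-LRCs, and the recycling ATPase *Abce1* had -0.47 (s.e. 0.18). In the mTORC1 list, *Mlst8* had -0.93 (s.e. 1.23), with 3 counts in the LRC library of experiment 2, and 0.38 without that experiment. The mTORC1 inhibitor *Tsc2* had 0.53 (s.e. 0.18, edgeR adjusted p of 0.209). In hypusine and diphthamide synthesis, 5 of 6 genes lay above 0, with *Dph2* at 0.69 (s.e. 0.29) and *Dohh* at 0.50 (s.e. 0.39). The eIF4E kinases *Mknk2* and *Mknk1* had 0.09 (s.e. 0.29) and 0.05 (s.e. 0.26), and the selenocysteine factors *Eefsec* and *Secisbp2* had 0.24 (s.e. 0.27) and 0.014 (s.e. 0.41).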
